A study of Mus musculus with 8 samples.

Results

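The genes described here are Myc and 9 regulators of entry into and progress through the cell cycle: the D-type cyclins Ccnd2 and Ccnd3, the kinases Cdk4 and Cdk6, the transcription factors E2f1 and E2f2, and the inhibitors Cdkn1a, Cdkn1b and Cdkn2a. They are 10 of the 21887 protein-coding genes placed on chromosomes in the annotation. A peak belonged to one of them when its summit lay inside the gene body on GRCm38, or outside every protein-coding gene with a bound of that gene nearest and within 100 kb. By this rule 22 peaks were assigned to 8 of the 10 genes, and all 22 came from 1 of the 4 peak lists, that of Brg1 after dTAG-13, in which 12.2% of all protein-coding genes had an assigned peak. No EBF1 peak of either condition and no Brg1 peak of the DMSO control was assigned to any of the 10, and those lists gave a peak to 1.28% (EBF1 DMSO), 0.0228% (EBF1 dTAG-13) and 0.818% (Brg1 DMSO) of all genes.

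EBF1, a transcription factor that B-cell development requires, and Brg1, the catalytic subunit of BAF chromatin remodellers, had been mapped by chromatin immunoprecipitation with sequencing (ChIP-seq). The cells were mouse pro-B cells transformed with A-MuLV, the Abelson leukaemia virus, in which an exogenous EBF1 with a dTAG degron replaced the endogenous protein in every group. EBF1 was precipitated from EBF1-dTAG_C cells and Brg1 from EBF1-dTAG_N cells, each after 6 h of 0.5 µM dTAG-13, which targets the tagged protein for degradation, and in a DMSO control that the labels give as 6 h of DMSO and the titles as 0 h. Each of these 4 groups was 1 library, so no value below has a replicate error and no test between groups was made; the p and q values given are those of single peaks over local background. The 4 lists hold no EBF1 peaks from EBF1-dTAG_N cells, so they do not show whether EBF1 was lost there.

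Progress from G1 into S phase is gated by D-type cyclins, which activate Cdk4 and Cdk6. These kinases phosphorylate the retinoblastoma protein, and the E2F factors that it holds are then free to switch on genes of DNA synthesis. Myc promotes this step, and p21 (from Cdkn1a), p27 (from Cdkn1b) and the products of Cdkn2a, p16Ink4a and p19Arf, oppose it. In pro-B cells proliferation depends on signals from the IL-7 receptor, whereas in A-MuLV-transformed cells the viral v-Abl kinase drives it. Established A-MuLV lines often carry lesions of the Arf and p53 axis, and whether these lines did was not tested.

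The EBF1 lists held 312 (DMSO) and 5 (dTAG-13) peaks, and the Brg1 lists 234 and 5206. The Brg1 libraries differed in background, which stands in for depth here because the lists give no read numbers. The lowest local background among the peaks was taken as that of the genome. It was 0.607 fragments per base for the DMSO library and 2.15 for the dTAG-13 library, 3.54 times as much. Calling settings and controls, which are not given, could also change this ratio. Fewer peaks in DMSO and lower depth in DMSO cannot be told apart from the lists alone. As a check of the cell type, Brg1 peaks after dTAG-13 were assigned to 8 of 10 pro-B markers, with none at Rag1 and Rag2, against 1 of 5 T-cell markers (Cd3d), 0 of 5 myeloid and 0 of 4 erythroid markers. EBF1 peaks in DMSO were assigned to 4 of the pro-B markers (Cd79b, Pax5, Ebf1 and Igll1).

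The RefSeq (GRCm38.p6) starts and promoter sequences used here covered 8 of the 10 genes, with 12 starts in all. They held none for Myc and Ccnd2, so whether the Myc peak lies over a promoter was not examined. Of these 12 promoters, taken from 250 bases before to 50 after a start, 1 lay under a Brg1 peak after dTAG-13, that of Cdk6, whose 300 bases were covered whole. Of all 32851 listed promoters, 1.59% lay under a peak of that list. The 250 bases before the Cdk6 start (chromosome 5, plus strand, chr5:3343643-3343892) are shown because they are the only sequence of these genes that a peak of any list covered at a listed start. Those before the Cdk4 start (chromosome 10, plus strand, chr10:127063285-127063534) are shown beside them because Cdk4 encodes the partner kinase and had no peak. Capitals mark the E-box CACGTG, the sequence that Myc with its partner Max is known to bind.
Cdk6: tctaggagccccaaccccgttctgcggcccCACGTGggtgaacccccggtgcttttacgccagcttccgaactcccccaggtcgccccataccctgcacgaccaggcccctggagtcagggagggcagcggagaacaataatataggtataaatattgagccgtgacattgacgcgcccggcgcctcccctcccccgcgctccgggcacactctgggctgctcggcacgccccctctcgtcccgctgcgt
Cdk4: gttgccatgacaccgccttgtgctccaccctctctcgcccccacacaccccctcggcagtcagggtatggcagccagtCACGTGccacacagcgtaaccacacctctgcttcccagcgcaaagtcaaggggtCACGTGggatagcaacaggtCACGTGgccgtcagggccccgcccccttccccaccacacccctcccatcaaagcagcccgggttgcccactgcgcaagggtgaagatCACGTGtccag
The Cdk6 promoter holds 1 E-box, with its first base at -220 from the start, and the Cdk4 promoter holds 4, at -172, -118, -98 and -11. At least 1 E-box stood in 7.15% of all 32851 listed promoters and at least 4 in 0.0244% (8 promoters). Both windows are rich in G and C, with 27 CpG dinucleotides and 66.7% GC at Cdk6, and 22 and 67.0% at Cdk4, against medians of 7 and 52.7% over all promoters. The median CpG number was 22 for the 523 promoters under a Brg1 peak after dTAG-13 and 7 for the others. The uncovered Cdk4 promoter thus had the CpG number of the median covered one.
The other strings searched, on both strands, were an EBF1 core (TCCCNNGGG, in 6.56% of all promoters), E2F strings (TTTGGCGC, 0.514%, TTTCGCGC, 0.323%, and TTCGCGCC, 0.524%, the last overlapping the one before it), an ETS string (GAGGAAGT, 3.20%), a CRE (TGACGTCA, 1.79%) and AP-1 (TGANTCA, 7.81%). Among the 12 promoters of these genes, 1 match was found, TTTGGCGC at position 40 after the first of 2 listed E2f2 starts. The only listed starts of E2f1 (154569426) and Cdk6 (3343893) lie inside the gene bounds, at 154569892 and 3341004. The sequence before those bounds was therefore not searched. These letters are matches of text and not sites of binding.

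**Figure D1:**
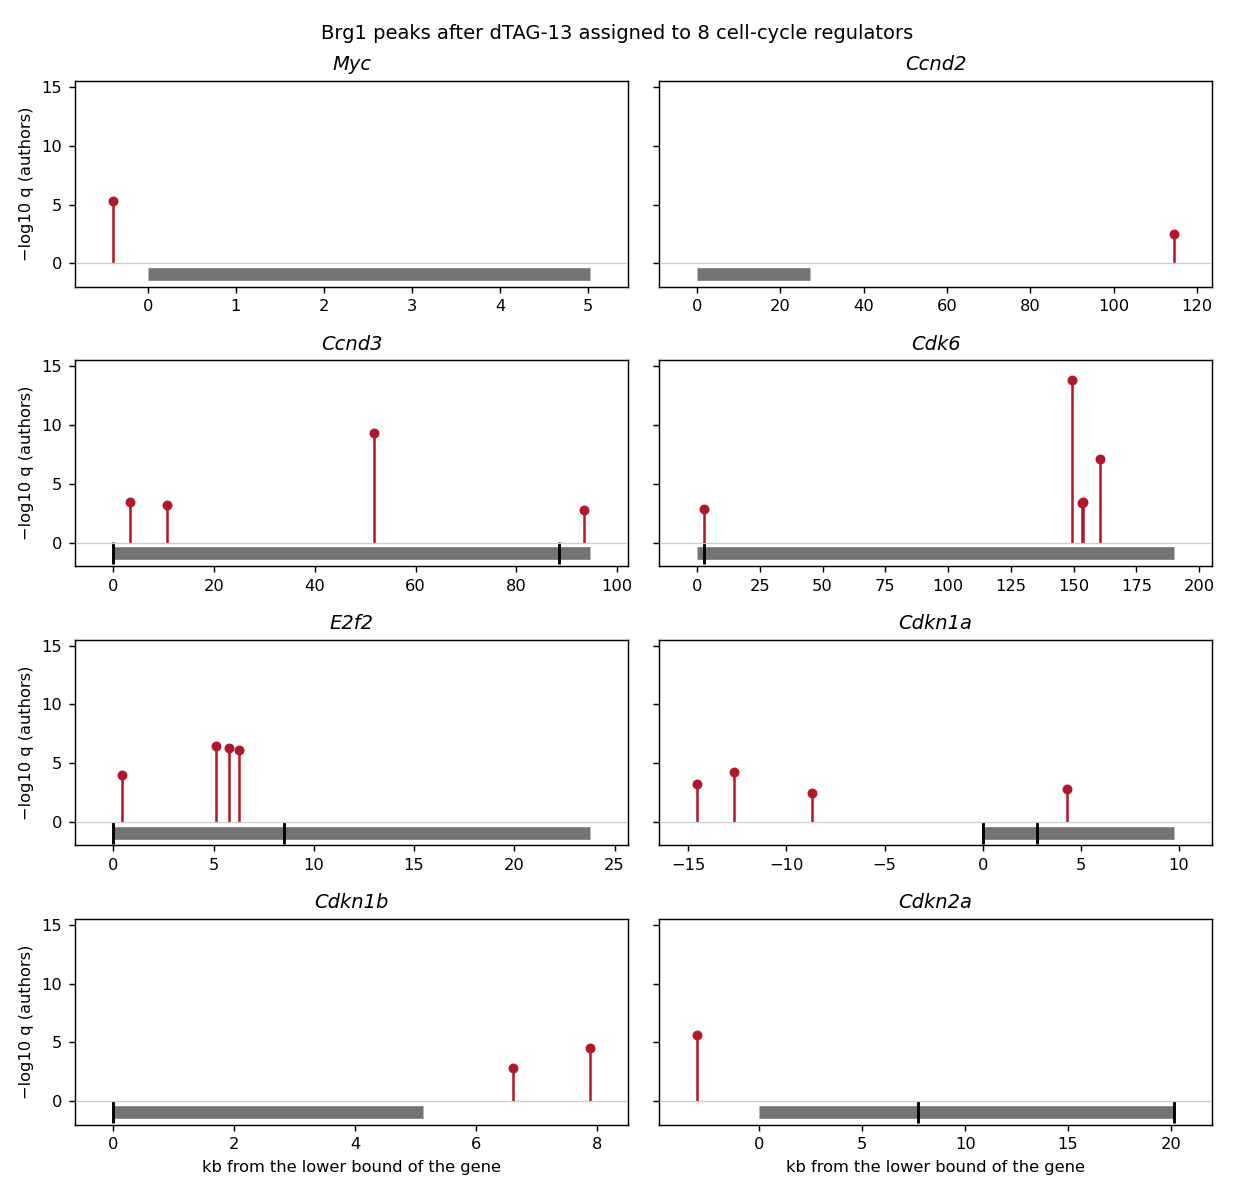
Brg1 peaks after dTAG-13 at the 8 genes that had any, with the distance from the lower-coordinate bound of the gene in kb on the x axis and the authors' −log10 q on the y axis; grey bars are gene bodies, black ticks are listed RefSeq starts (not used here for Myc and Ccnd2), and each stem is 1 peak summit. The highest stem, 13.86, stands in the distal part of Cdk6, and the peaks of E2f2 stand close together in the first part of the gene.

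Myc, the transcription factor that couples growth signals to ribosome and nucleotide synthesis, had 1 Brg1 peak after dTAG-13 and none in the other lists. It lay at chromosome 15, 61984826 to 61985094, with its summit 390 bp outside the lower-coordinate bound of the gene. The summit held 16 fragments, an authors' fold enrichment over local background of 5.15 and a −log10 q of 5.31, rank 1939 of 5206. The gene is alone in a wide stretch, from which 205 kb of sequence could give it a peak, and no second peak was found there. The next Brg1 peak of the same list (62169255 to 62169805) was outside the 100 kb limit, 179 kb from Myc and inside Pvt1, a long noncoding RNA (lncRNA) gene that neighbours Myc, with 18 fragments and a fold enrichment of 5.67. The nearest EBF1 peak in DMSO was 1668 kb from Myc and the nearest Brg1 peak in DMSO 2062 kb.

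The D-type cyclin genes differed in where their peaks lay. Ccnd2, which encodes a D-type cyclin that B-lineage cells express, had 1 peak, at chromosome 6, 127239606 to 127239917, 87.4 kb from the gene. It was among the lowest of the list, with 13 fragments, a fold enrichment of 3.74 and rank 4615, and is the peak closest to the 100 kb limit from within. By annotation it was nearer to a lncRNA gene, 9330179D12Rik, 27208 bp away, and Ccnd2 had no peak when noncoding genes could take peaks. Outside the limit, 114 kb from Ccnd2 (127265843 to 127266292), stood a peak with 25 fragments, a fold enrichment of 7.40 and rank 224, which the rule leaves without a gene.

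Ccnd3, which pre-B cells are known to need for their expansion, had 4 peaks, all inside its body of 94.6 kb. The highest (chromosome 17, 47556467 to 47557099) lay 36.6 kb before the second of its 2 listed starts, with 28 fragments, a fold enrichment of 5.31 and a −log10 q of 9.31, rank 495. The others had 20 fragments (47508235 to 47508579, 3355 bp after the first start), 16 (47515551 to 47515755) and 16 (47598443 to 47598691), and fold enrichments of 3.49, 3.81 and 3.50. None of them lay within 1 kb of a listed Ccnd3 start. Another peak (47600016 to 47600379, 24 fragments, fold enrichment 4.07) stood 604 bp past the end of Ccnd3 but inside the body of Bysl, and was not counted. In Brg1 DMSO the nearest peak was 169 kb away, inside Tfeb.

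The partner kinases stood apart in this list. Cdk6 had 5 peaks, the most of the 10 genes, and Cdk4 had none. At least 5 assigned peaks were found at 0.708% of protein-coding genes and at most 15 at any. The highest Cdk6 peak (chromosome 5, 3489718 to 3490795) was also the highest and the widest of all 22, at 1078 bp, with 33 fragments, a fold enrichment of 6.56 and a −log10 q of 13.86, rank 159. It lay 147 kb after the listed start, inside the gene, and 3 more followed within 10.9 kb of its summit. These held 18 fragments (3494260 to 3494588), 20 (3494691 to 3494914) and 19 (3501167 to 3501531), with fold enrichments of 3.66, 3.49 and 5.73, and only 102 bp separated the first and second of these. The remaining peak (3343535 to 3344022) covered the promoter shown above, with its summit 166 bp before the start, 13 fragments and a fold enrichment of 3.99. The promoter peak ranked lowest of the 5 Cdk6 peaks, at 4229 of 5206, and the distal body held the highest. A lncRNA gene on the opposite strand, Gm36470 (3289980 to 3343559), starts 168 bp from that summit and runs away from the listed Cdk6 start. It overlaps the lower end of the annotated Cdk6 body, which begins at 3341004.

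Cdk4 is a short gene, of 3.75 kb, with close neighbours, and only 5.4 kb of sequence could give it a peak, against 296 kb for Cdk6. Its absence from the list is therefore an absence from a small window. The nearest Brg1 peak after dTAG-13 was 69.8 kb away (127136968 to 127137172), assigned to Os9, with 15 fragments and a fold enrichment of 3.68.

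Of the E2F genes, E2f2 had 4 peaks and E2f1 none. Both encode activating E2F factors that retinoblastoma protein holds in check. At E2f2 (chromosome 4, 136172274 to 136196057) the first peak (136172651 to 136172860) had its summit 431 bp after the listed start, with 17 fragments and a fold enrichment of 4.14. The remaining 3 formed a tight group 5138 to 6296 bp into the gene, with gaps of 204 and 223 bp between them. They held 19 fragments (136177075 to 136177759), 18 (136177964 to 136178194) and 18 (136178418 to 136178910), and fold enrichments of 5.34, 5.41 and 5.32, all above that of the peak at the start. When neighbours of 1 gene within 1 kb were counted as 1, an alternative chosen after seeing the data, the 22 peaks became 18.

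EBF1 came closer to E2f2 than to any other of the 10 genes. A peak of EBF1 in DMSO (136127834 to 136128024, fold enrichment 5.96) and one of Brg1 in DMSO (136127805 to 136127988, 10 fragments, fold enrichment 6.85) overlapped 44.3 kb from E2f2. The rule gives both to Id3, an inhibitor of E proteins, 15.9 kb from them, and no peak of the dTAG-13 lists overlapped them. Whether this site acts on either gene was not tested.
E2f1 (chromosome 2, 154559400 to 154569892) had 18.5 kb from which to draw a peak, and the nearest Brg1 peak after dTAG-13 was 538 kb away. The nearest EBF1 peak in DMSO lay 1469 kb from it.

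The inhibitor genes had 7 peaks, 6 of them outside the gene bodies. Cdkn1a, which encodes p21, a target of p53 that inhibits cyclin-dependent kinases, had 4. Of these, 3 lay before the first listed start, by 14548 bp (chromosome 17, 29076289 to 29076493), 12692 bp (29078196 to 29078400) and 8704 bp (29082153 to 29082377). They held 16, 19 and 23 fragments and had fold enrichments of 3.81, 4.04 and 2.81. The third had the lowest fold enrichment of the 22 although its fragment number was the third highest, because its local background was 3.51 times the lowest of the list. The first and the second lay inside Trp53cor1, known as lincRNA-p21, a p53-induced lncRNA of the mouse beside Cdkn1a. A further peak inside Trp53cor1 (29062412 to 29062826) was nearer to Srsf3 and was not counted. The last Cdkn1a peak (29095105 to 29095376, 21 fragments, fold enrichment 3.06) lay inside the gene, 1506 bp after the second of 2 listed starts.

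Cdkn1b, the gene of the quiescence-associated inhibitor p27, had 2 peaks past its 3′ end. They lay 1489 bp (chromosome 6, 134926859 to 134927159) and 2765 bp (134928116 to 134928376) beyond the gene and held 15 and 19 fragments, with fold enrichments of 3.68 and 4.19. The second stood 802 bp before the start of Lockd, a lncRNA gene downstream of Cdkn1b, so that by annotation it was nearer to that gene. No Brg1 peak covered the Cdkn1b promoter, which with 30 CpG dinucleotides was richer in CpG than that of Cdk6.

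Cdkn2a, from whose separate starts p16Ink4a and p19Arf are made, had 1 peak, at chromosome 4, 89271293 to 89271609. It lay 3027 bp past the 3′ end of the gene, with 16 fragments, a fold enrichment of 5.38 and a −log10 q of 5.65, rank 1716. Neither of the 2 listed starts had a peak: the nearest was 10.5 kb from the promoter window of the inner and 15.8 kb from that of the outer start. On the other side, 7 peaks were assigned to the neighbour Cdkn2b, the gene of p15Ink4b, of which the nearest to Cdkn2a was 16.2 kb from it (89310642 to 89310956, 21 fragments) and the highest was at 89351118 to 89351696 (26 fragments, fold enrichment 6.21). All 7 lay within Gm12610, a lncRNA gene of 223 kb.

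Over the 22 peaks, the fragments at the summit ran from 13 through a median of 18 to 33, and the median of the whole list was also 18. The fold enrichment ran from 2.81 through 4.01 to 6.56, against a list median of 4.45, and the −log10 q from 2.49 through 3.71 to 13.86, against 4.52. By p the median peak stood at percentile 33.9 of its list, 9 of the 22 stood above the middle, and 2 (the highest of Cdk6 and of Ccnd3) above percentile 90. The peaks of these genes were therefore of middling to low height for the list. Their median width was 286 bp, and that of the list 323 bp.

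By position, 14 of the 22 summits lay inside the gene (Ccnd3, Cdk6, E2f2 and 1 of Cdkn1a) and 8 outside, where 52.1% of all peaks in the list lay inside a protein-coding gene. Summits within 1 kb of a bound of their gene numbered 2 (Myc and E2f2). Of all peaks, 18.6% lay within 1 kb of a bound of any protein-coding gene, a wider measure than a bound of their own gene. Summits within 1 kb of a listed start of their gene also numbered 2, those at Cdk6 and E2f2, of the 20 peaks whose gene had one. Of all peaks, 20.0% lay so close to a listed start of any gene, noncoding genes included, which is a wider measure. By it the Cdkn1b peak 802 bp before the Lockd start would count too. The annotation gives no exons, so exonic and intronic summits were not told apart.

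**Figure D2:**
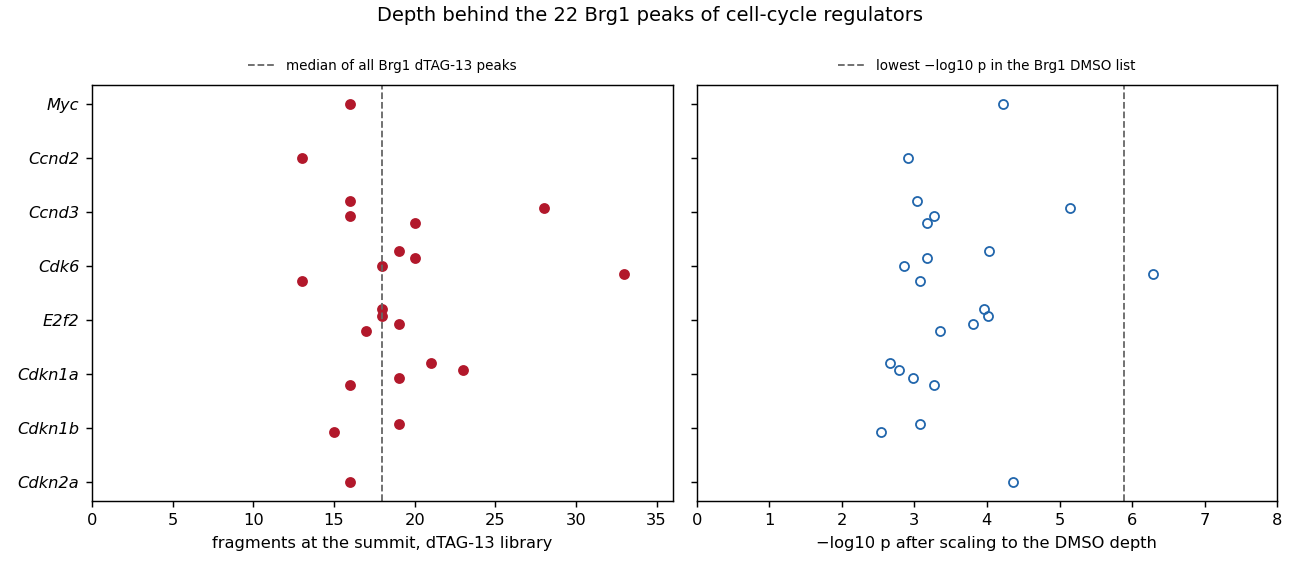
The 22 Brg1 peaks by gene. Left, fragments at the summit in the dTAG-13 library, with the median of the whole list (18) as a dashed line; right, the −log10 p that each summit would have after its fragments and background are divided by 3.54, with the lowest value in the Brg1 DMSO list (5.89) as a dashed line. On the right only the highest Cdk6 peak, at 6.29, lies past the line.

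None of the 22 peaks overlapped a peak of another list by as much as 1 bp, whereas in the whole dTAG-13 list 2.42% overlapped a Brg1 peak of DMSO and 1.09% an EBF1 peak of DMSO. At 22 peaks, those shares amount to less than 1 peak. The shortest distance from any of the 22 summits to a Brg1 summit of DMSO was 44.8 kb, and to an EBF1 summit of DMSO also 44.8 kb, both at E2f2. The background ratio of 3.54 was taken as that of depth. Divided by it, the 22 summits would hold 3.68 to 9.33 fragments, with a median of 5.09. The lowest summit in the DMSO list held 8. Rounded to whole fragments, 1 of the 22, the highest peak of Cdk6, would reach the lowest −log10 p of that list, with 6.29 against 5.89, and the other 21 lay at 2.54 to 5.14. The same arithmetic let 5.70% of the whole dTAG-13 list through, 297 peaks, of which 48 were found in DMSO, although 126 of the list were, so it is a rough guide and no bound.

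**Figure D3:**
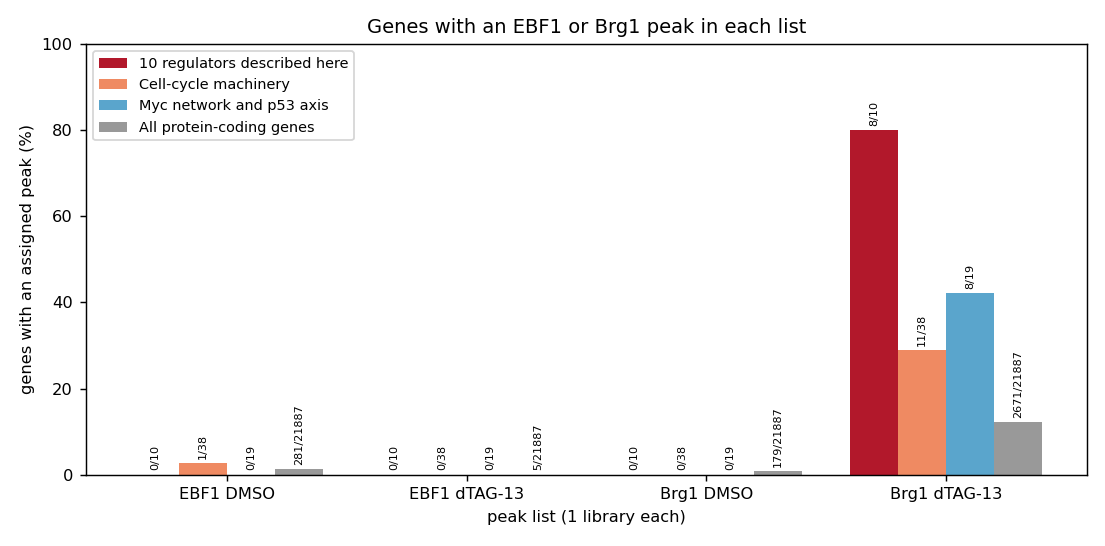
Share of genes with at least 1 assigned peak in each of the 4 lists, on the y axis in percent, with the number of genes above each bar; bars stand for the 10 regulators, 2 lists of related genes and all protein-coding genes, and each list is 1 library. In the Brg1 dTAG-13 list the bars are 8 of 10, 11 of 38, 8 of 19 and 2671 of 21887 genes.

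Set beside all protein-coding genes, 8 of the 10 regulators against 12.2% had a Brg1 peak after dTAG-13. In the other lists 0 of the 10 had a peak, where shares of at most 1.28% leave little room for any among 10 genes. At least 4 Brg1 peaks after dTAG-13 were assigned to 4 of the 10 (Ccnd3, Cdk6, E2f2 and Cdkn1a), as to 1.26% of all genes. The 0.956 Mb of sequence that could give a peak to the 10 genes held 23.0 peaks per Mb, and that of all protein-coding genes 2.49. These genes were picked with such counts known, so the counts describe them and test nothing.

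The wider pathway gave lower shares. Of 38 further genes of the cell-cycle machinery, 11 (28.9%, against 12.2% of all protein-coding genes) had a Brg1 peak after dTAG-13, with 24 peaks in all. The 5 with the highest peaks were Cdkn2b (described above), Wee1, the kinase that holds back mitosis (20 fragments, fold enrichment 5.98, 23.1 kb from the gene), Rb1, the retinoblastoma gene (25 fragments, 5.01, 8.09 kb from the gene), Cdc25b, a phosphatase that activates cyclin-dependent kinases (16 fragments, 5.40, inside) and E2f3, an activating E2F (17 fragments, 5.04, inside). The others were Cdkn2c, E2f7, Tfdp2, E2f8, E2f5 and Rbl1. No peak was assigned to Ccnd1, to the cyclin E, A and B genes in the list, to Cdk1 or Cdk2, or to the replication genes Pcna, Mcm2, Mcm7, Cdc6 and Cdt1.

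Of 19 genes of the Myc network and the p53 axis, 8 (42.1%, against 12.2% of all protein-coding genes) had a Brg1 peak after dTAG-13, with 10 peaks in all. The highest was at Mdm4, a negative regulator of p53 (chromosome 1, 133012115 to 133012786, inside, 24 fragments, fold enrichment 6.99, −log10 q 11.11). It was followed by Fbxw7, the ubiquitin ligase subunit that targets Myc and cyclin E (16 fragments, 4.84, inside), Mdm2, the ubiquitin ligase of p53 (15 fragments, 4.56, 9.29 kb away), Max, the partner of Myc (14 fragments, 4.43, 94.7 kb away) and Usp28, a deubiquitinase of Myc (13 fragments, 4.11, inside). Mnt, Mxi1 and Mycn made up the rest, and Trp53 itself had none.
EBF1 in DMSO had a peak at 1 of these 57 genes, Btg2, an antiproliferative gene (chromosome 1, 134093312 to 134093560, 14.3 kb from the gene, fold enrichment 6.59, rank 119 of 312). In EBF1 dTAG-13 and Brg1 DMSO none of the 57 had one. Of all protein-coding genes, 1.28% had a peak in EBF1 DMSO, 0.0228% in EBF1 dTAG-13 and 0.818% in Brg1 DMSO.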

How the data were processed

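The data were 4 peak lists from ChIP-seq, 1 library per group. The submitters' processing notes name MACS2 2.2.7.1, Bowtie2 2.3.5.1, deepTools 3.3.2 and SAMtools 1.10, with GRCm38 and mm10 as builds. The sources used here do not give read filters, calling settings or controls. The authors give each peak a linear fold enrichment over local background, p and q values as −log10, a whole-number score and the summit offset. These are the authors' own values and rank peaks only within a list. EBF1 was precipitated with 4 µg of antibody after 1% formaldehyde for 10 min, and Brg1 with 0.5 µg after EGS and 15 min of formaldehyde, per the labels' protocols.

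Summits were assigned with RefSeq gene bounds of GRCm38.p6 in Python 3.11.15 (pandas 2.3.3, SciPy 1.17.1). The length that could give a gene a peak was measured in steps of 100 bp. Whole fragments at Brg1 summits were solved from fold enrichment and p. Fold enrichment was taken as fragments plus 1 over background plus 1, and p as that of a Poisson count. The solution lay within 0.001 of the −log10 p for 100% of peaks, and the solver was tested on simulated data. Overlap meant at least 1 bp. The genes and lists were chosen with earlier results of these data known. Every peak of the 10 genes is named, and of the other lists every gene with an EBF1 or Brg1 DMSO peak, the 5 with the highest Brg1 dTAG-13 peak and, beyond that rule and after the values were seen, the remaining ones. Inputs were not used here. Alternatives varied thresholds, list length, assignment and overlap. Fragment numbers were solved and not counted from reads. With 1 library per group, their variation between libraries was not measured.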

Additional observations from a re-analysis of the deposited data

How the results depend on the processing

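No paired analysis was possible because each group was 1 library and no result comes from a test. Of 49 alternative values, 32 stayed within 1.5 times the reported count, among them every count of 0 for EBF1, for Brg1 in DMSO and for overlaps with another list. Most of these counts of 0 could not have moved. Higher thresholds, a shorter list, a shorter reach, noncoding genes taking peaks and a stricter overlap can only keep or lower a count. Only the use of the nearest other gene, the distance between summits and the extended intervals could have raised a count of 0. The other 17 were counts of the Brg1 dTAG-13 list.

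The reported counts were 22 peaks, 8 genes with a peak, 2 peaks within 1 kb of a bound and 19 genes of the 57 related ones. With a −log10 q of at least 5 they fell to 8, 5, 1 and 7, and with at least 10 to 1, 1, 0 and 2, the peak left being the highest of Cdk6. When only as many dTAG-13 peaks were kept as the DMSO list held, they were 1, 1, 0 and 0. Within gene bodies alone they were 14, 4, 1 and 11, since peaks outside are then not counted. Within 2.5 kb of a bound there were 4 peaks, at Myc, E2f2, Ccnd3 and Cdkn1b. Within 20 kb, 21 peaks and 7 genes were left, without Ccnd2. With noncoding genes allowed to take peaks there were 17 peaks at 7 genes, again without Ccnd2, and with the nearest other gene also used for summits inside a gene, 27 peaks at 8 genes.

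Of the 22 peaks, 16 rest on fewer than 20 fragments, and the number of genes with a peak moved with the threshold. No replicate shows which peaks would be called again.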
